A study of Homo sapiens with 6 samples.

Results

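The comparison described here sets K562 cells that received a small interfering RNA (siRNA) against K562 cells that received a scrambled RNA, pair by pair within the same experiment. It holds all 6 arrays of the series, chosen by their labels alone, with 3 siRNA arrays (labelled RNAi8) and 3 scrambled RNA arrays (labelled scrRNA). K562 is an established human line derived from chronic myeloid leukaemia. RNA at up to 200 nM was nucleofected into the cells, and 24 hours later all-trans retinoic acid (ATRA) was added, or DMSO in its place. Experiments 1 and 3 are ATRA pairs and experiment 2 is the DMSO pair, so that both arrays of a pair shared their treatment. A pair difference leaves out what treatment does to both arrays alike, but an siRNA effect that depends on treatment would remain in it. No untransfected cells are among the samples, every group is this 1 line, and only 1 siRNA was used. The labels do not say what RNAi8 is directed at, and the title of the series is about PRAME.

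PRAME is a leucine-rich repeat protein of the testis that many tumours switch on. It serves as the substrate-binding subunit of a CUL2 ubiquitin ligase, and it also binds retinoic acid receptors and holds back the transcription of their target genes. An siRNA is loaded into an Argonaute protein and guides it to matching transcripts, which are cut. Transcripts that match only the short seed of the siRNA can be lowered as well, while a scrambled RNA passes through the same machinery without the intended match.

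The values are log2 signals of probe sets on an Affymetrix expression array, summarised by the authors with the RMA algorithm. A difference of 1 is a doubling of signal. Each of 19775 genes is represented by its probe set of highest mean, and a probe set whose mean lies under the median of all probe sets (5.99) is called dim, since it was not shown to be above background. The genes that mark the line were bright on all arrays. Embryonic zeta globin HBZ had 11.64 to 12.31, the erythroid factor GATA1 8.41 to 9.16, the transferrin receptor TFRC 13.13 to 13.70, and the fusion partner ABL1 9.87 to 10.57. Experiment 3 stands apart in its control probe sets. For actin the 3' probe set exceeded the 5' one by 2.98 and 3.36 there and by 0.63 to 0.92 elsewhere, and for GAPDH by 1.20 and 0.74 there and by 0.03 to 0.08 elsewhere. Results below are therefore given with and without that experiment where it changes them, and its part in them was otherwise not tested.

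PRAME, NORAD and the trypsinogen gene PRSS2 fell with the siRNA, and FN1 and SLC16A9 rose. These 5 genes, 0.0253% of all tested, passed limma with the experiment as a block at a Benjamini-Hochberg adjusted p of 0.05. They encode a cancer-testis antigen, a noncoding RNA, a digestive protease, a matrix protein and a transporter.

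PRAME had log2 levels of 12.13, 12.14 and 12.10 on the siRNA arrays of experiments 1, 2 and 3, against 13.005, 12.99 and 12.70 on the scrambled arrays. The groups did not overlap. The siRNA arrays lay closer together (SD 0.02, n = 3) than the scrambled arrays (SD 0.17, n = 3), and the smaller difference of experiment 3 came with a lower scrambled level. The pair differences of -0.88, -0.85 and -0.60 averaged -0.78 ± 0.06 (moderated SE, limma adjusted p = 9.97e-04), which leaves 58.4% of the signal. PRAME had the lowest mean difference and the smallest p of all 19775 genes, and it alone was lower by at least 0.5 in each of the 3 pairs. An exact two-sided permutation of the 3 pair signs gave p = 0.25, the smallest it can give. Without experiment 2 the call was lost (limma adjusted p = 0.142).

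NORAD is an abundant cytoplasmic noncoding RNA that binds PUMILIO proteins and keeps them from their other targets. Its levels were 11.72, 11.62 and 11.77 with the siRNA and 12.27, 12.20 and 12.19 with the scrambled RNA. These groups did not overlap either, and within each group the 3 arrays lay close together (SD 0.08 with the siRNA, 0.05 with the scrambled RNA). The mean difference was -0.52 ± 0.05 (moderated SE, limma adjusted p = 0.00531). A second NORAD probe set differed by -0.43, -0.71 and -0.27, again with the smallest difference in experiment 3.

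PRSS2 encodes anionic trypsinogen, a digestive enzyme of the pancreas. It had 7.11, 7.29 and 6.17 with the siRNA and 7.53, 7.85 and 6.87 with the scrambled RNA. The groups overlapped, because both arrays of experiment 3 were lower than those of the other experiments, and the difference shows only within pairs. It averaged -0.56 ± 0.07 (moderated SE, limma adjusted p = 0.0323). PRSS2 belongs to a family of near-identical trypsinogens, so its probe sets may also take up transcripts of its relatives. Its second probe set differed by -0.31, -0.15 and -0.45, and the probe set used for PRSS3, another trypsinogen, by -0.09, -0.18 and -0.22.

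FN1 encodes fibronectin, a glycoprotein of the extracellular matrix that integrins bind. It stood at 9.20, 8.99 and 9.68 with the siRNA and at 8.32, 8.57 and 8.81 with the scrambled RNA, without overlap. The 2 ATRA pairs differed by 0.88 and 0.87 and the DMSO pair by 0.42. The mean was 0.72 ± 0.08 (moderated SE, limma adjusted p = 0.0232), or 1.65-fold, the highest of all genes. The 3 next brightest FN1 probe sets gave pair differences of 0.82, 0.38 and 0.84, of 0.89, 0.48 and 0.89, and of 0.87, 0.51 and 0.93. So the DMSO pair was the smallest on each of these 4 probe sets, which share the same RNA and are not replicates. The bright probe set of lowest level (6.11) gave 0.12, 0.00 and -0.08. The mean over all 7 probe sets differed by 0.43 and missed the test (limma adjusted p = 0.348).

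SLC16A9 encodes a transporter of the monocarboxylate family. Its levels were 8.78, 8.49 and 9.34 with the siRNA and 8.20, 8.08 and 8.65 with the scrambled RNA. The groups overlapped, since the scrambled array of experiment 3 exceeded the siRNA array of experiment 2. Within pairs the differences were 0.58, 0.41 and 0.69, a mean of 0.56 ± 0.06 (moderated SE, limma adjusted p = 0.0232), or 1.47-fold. Again the DMSO pair was the smallest, and only 1 probe set measures this gene. DMSO is 1 pair, here and for FN1, so it cannot be told apart from experiment 2.

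Leaving out an experiment leaves 2 pairs, and fewer of these genes pass. Without experiment 3, PRAME and NORAD passed, while FN1 (0.65), SLC16A9 (0.50) and PRSS2 (-0.49) each had a limma adjusted p of 0.980. Without experiment 1 PRAME alone passed, and without experiment 2 FN1 alone. FN1, SLC16A9, PRSS2 and NORAD also missed it with no intensity trend (limma adjusted p of 0.120 to 0.134), with every probe set tested (0.101 to 0.372) and with the mean of a gene's probe sets (0.125 to 0.348). With treatment as a covariate in place of the block, limma called 0 genes, and 255 had an unadjusted p below 0.05.

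**Figure D1:**
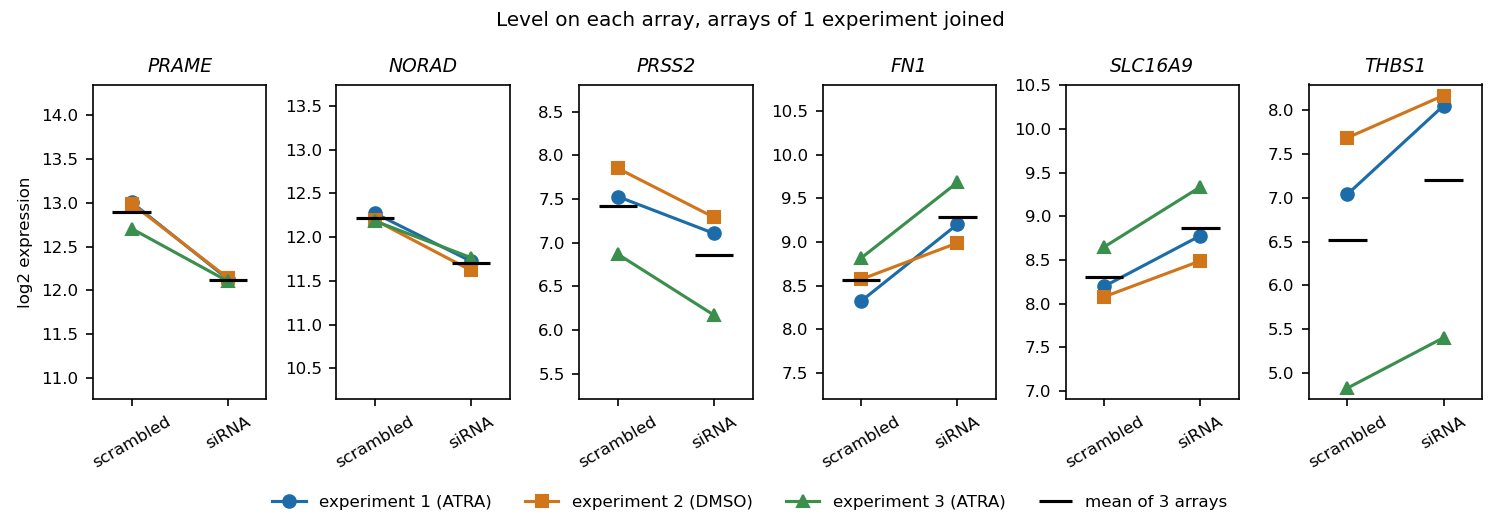
Log2 expression of 6 genes on the 6 arrays (vertical axis), scrambled RNA at the left and siRNA at the right of each panel, with a line for each experiment and a bar for the mean of 3 arrays. Every panel spans the same number of log2 units. PRAME, NORAD and PRSS2 slope down and FN1, SLC16A9 and THBS1 slope up in all 3 experiments, while PRSS2 and THBS1 lie lower in experiment 3 on both arrays.

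Windows around transcription starts of the genes that passed, other than PRAME, are shown because the series concerns a repressor of retinoic acid receptors. These receptors bind paired copies of a short site, such as AGGTCA or the variant GGGTCA. Other spellings of the site were not searched. Each window runs from 250 bases before to 50 bases after a start site in RefSeq (GRCh38.p14), 5' to 3' on the strand of the gene. They lie at chr2:215436019-215436318 (minus strand) for FN1, chr10:59710030-59710329 (minus) for SLC16A9, where RefSeq also lists another start, chr20:36050911-36051210 (minus) for NORAD and chr7:142770720-142771019 (plus) for PRSS2. Capitals mark AGGTCA and its variant GGGTCA as well as the CCAAT box and the element TATAAA, each on either strand.
FN1: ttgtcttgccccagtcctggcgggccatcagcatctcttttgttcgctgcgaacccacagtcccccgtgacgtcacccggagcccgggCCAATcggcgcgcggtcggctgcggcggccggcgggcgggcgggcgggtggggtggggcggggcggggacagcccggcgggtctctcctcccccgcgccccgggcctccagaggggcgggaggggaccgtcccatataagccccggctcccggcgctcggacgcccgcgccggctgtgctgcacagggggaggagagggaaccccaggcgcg
SLC16A9: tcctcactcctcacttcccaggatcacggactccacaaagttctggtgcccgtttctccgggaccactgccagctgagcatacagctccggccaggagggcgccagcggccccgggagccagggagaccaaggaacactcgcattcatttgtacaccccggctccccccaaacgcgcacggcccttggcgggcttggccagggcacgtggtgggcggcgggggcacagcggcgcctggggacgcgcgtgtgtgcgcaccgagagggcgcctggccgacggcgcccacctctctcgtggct
NORAD: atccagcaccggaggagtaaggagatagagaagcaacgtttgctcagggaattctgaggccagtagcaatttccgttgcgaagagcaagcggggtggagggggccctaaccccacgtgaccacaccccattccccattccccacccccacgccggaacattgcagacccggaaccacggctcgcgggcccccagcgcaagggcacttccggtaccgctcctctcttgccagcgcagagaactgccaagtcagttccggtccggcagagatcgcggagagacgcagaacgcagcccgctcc
PRSS2: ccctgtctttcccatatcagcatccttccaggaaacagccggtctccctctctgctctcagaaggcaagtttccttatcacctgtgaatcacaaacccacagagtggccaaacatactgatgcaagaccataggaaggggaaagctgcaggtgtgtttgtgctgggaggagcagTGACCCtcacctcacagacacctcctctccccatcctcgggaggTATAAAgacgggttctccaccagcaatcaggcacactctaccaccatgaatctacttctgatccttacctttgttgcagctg

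FN1 holds a CCAAT box at position -162, and PRSS2 a TATAAA at -32 and, on the other strand, a GGGTCA at -76. None of these motifs is spelled in the windows of SLC16A9 and NORAD. Among 35116 windows of the same length in the table, 34.6% hold CCAAT, 11.5% TATAAA and 25.6% at least 1 of AGGTCA and its variant GGGTCA. These matches are letters in a window, and binding was not measured.

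Across all genes the pair differences were small and hardly shared between experiments. Over genes they had an SD of 0.12 in each of experiments 1 and 2 and of 0.16 in experiment 3. Across the 19775 genes, which are not independent replicates, the pair differences correlated at r = 0.0063 between experiments 1 and 2, 0.098 between 1 and 3, and 0.087 between 2 and 3. With dim genes left out, r was 0.080, 0.165 and 0.094 over 12875 genes. The same sign in all 3 pairs was found for 4936 genes (25.0%), of which 2584 were higher (13.1%) and 2352 lower (11.9%) with the siRNA. Groups that did not overlap were found for 701 genes, with 396 higher (2.00%) and 305 lower (1.54%).

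**Figure D2:**
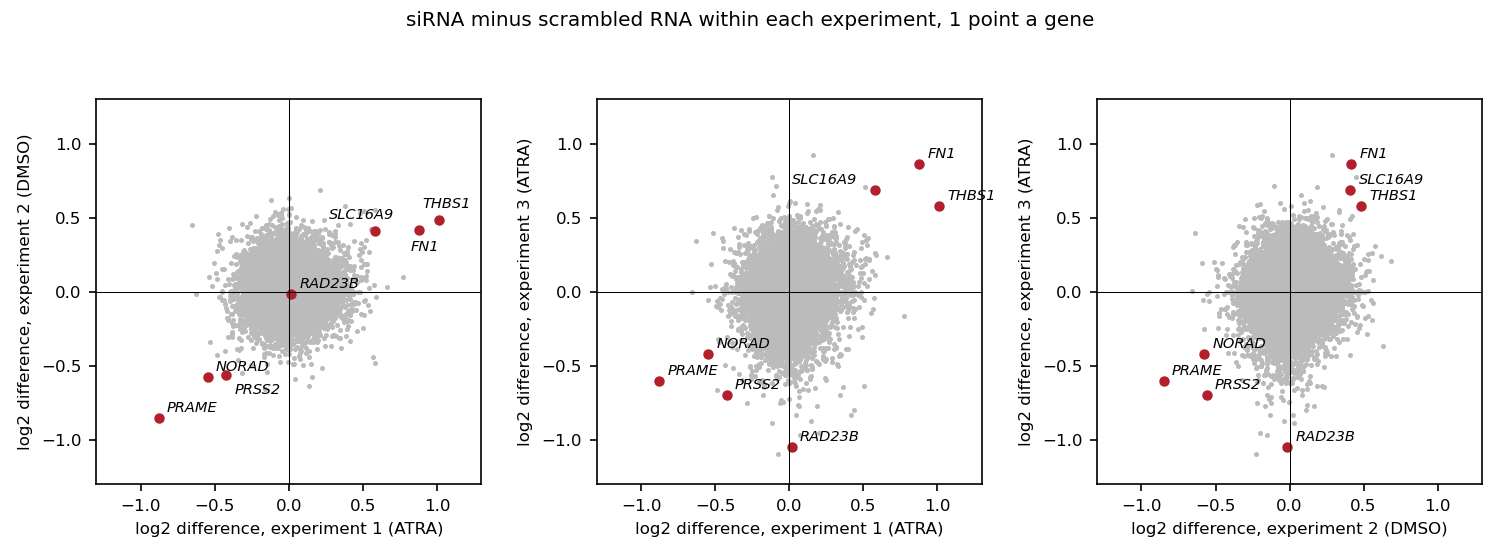
Pair differences (siRNA minus scrambled RNA, log2) of every gene in experiment 1 against 2, 1 against 3 and 2 against 3, 1 grey point a gene, with 7 genes in red. The cloud shows almost no slope (r between 0.0063 and 0.098), PRAME, NORAD and PRSS2 lie at the lower left and FN1, SLC16A9 and THBS1 at the upper right of each panel, and RAD23B departs from 0 in experiment 3 alone.

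Experiment 3 had the widest differences, and they leaned downward. Genes lower by 0.5 or more numbered 9, 12 and 104 in experiments 1, 2 and 3, and genes higher by as much 27, 21 and 37. Of the 104, 34 were also lower in both other pairs, 24 were higher in both, and 3 were lower by at least 0.3 in both. That experiment also had the large 3' to 5' gaps. Between its siRNA and scrambled arrays the gaps differed in opposite order, at 2.98 and 3.36 for actin and 1.20 and 0.74 for GAPDH. A link between the gaps and these differences was not tested.

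Few genes moved by a fair amount in every pair. At 0.3 or more in each, 8 genes were higher (0.0405%) and 4 lower (0.0202%). The higher ones were FN1, SLC16A9, THBS1, FAT1 and FOS, with PLPP3, ZNF883 and LHFPL3, which were dim and are named after their values were seen. The lower ones were PRAME, NORAD, PRSS2 and CR1L. Only FN1, SLC16A9 and THBS1 on one side and PRAME, NORAD and PRSS2 on the other kept that agreement at 0.4.

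THBS1 encodes thrombospondin, a matrix glycoprotein that, like fibronectin, is stored in platelets. Its levels were 8.05, 8.17 and 5.40 with the siRNA and 7.04, 7.69 and 4.82 with the scrambled RNA, so that both arrays of experiment 3 were dim. The pair differences were 1.01, 0.48 and 0.58, a mean of 0.69 ± 0.09 (moderated SE), and the test was missed (limma adjusted p = 0.0632). It was passed with dim genes left out (limma adjusted p = 0.0271), with robust variance estimation, and after quantile normalization or median centring. It was missed with no intensity trend (limma adjusted p = 0.217), with every probe set tested (0.562) and with an experiment left out (0.150 to 0.980). The mean of its 7 probe sets differed by 0.13 (limma adjusted p = 0.812). The remaining 6 probe sets differed by only -0.15 to 0.16 in the mean, and 5 of them were dim.

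FAT1, a large protocadherin, missed the test, with pair differences of 0.44, 0.35 and 0.41, and FOS, a subunit of the AP-1 transcription factor, with 0.38, 0.58 and 0.31. DLK1, a membrane protein related to Notch ligands, stood at 0.48, 0.53 and 0.21. PDE3B, a phosphodiesterase that breaks down cyclic nucleotides, was at 0.34, 0.28 and 0.46, and the transcription factor SOX5 at 0.27, 0.41 and 0.49. ZNF239 (mean 0.29), ZNF32 (0.28) and the noncoding SNHG24 (0.34) completed the 10 bright genes that were most evenly higher. Their adjusted p in limma ran from 0.197 for FAT1 to 0.487 for ZNF239, so none of these 8 is called. These genes were ranked by the smallest of their 3 pair differences, and their sign agreement is a product of that ranking.

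On the lower side the same ranking gave CR1L, a complement receptor-like gene, at -0.32, -0.32 and -0.60, and MAFF, a small MAF transcription factor, at -0.30, -0.26 and -0.43. CD52, a small surface glycoprotein of leukocytes, differed by -0.29, -0.22 and -0.75, and both of its probe sets did alike, with means of -0.42 and -0.47. MXD1, a MAX partner that opposes MYC, showed the closest agreement of pairs, at -0.23, -0.25 and -0.25. MTURN (mean -0.26), YPEL3 (-0.34) and GFPT1, the first enzyme of the hexosamine pathway (-0.35), were the others. All 7 had their largest difference in experiment 3. The limma adjusted p of these 7 ran from 0.197 to 0.630. Of the 20 genes ranked, 11 had another bright probe set. In 7 of these every such probe set had the same sign in the mean, and in MXD1, MTURN, YPEL3 and GFPT1 at least 1 did not.

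**Figure D3:**
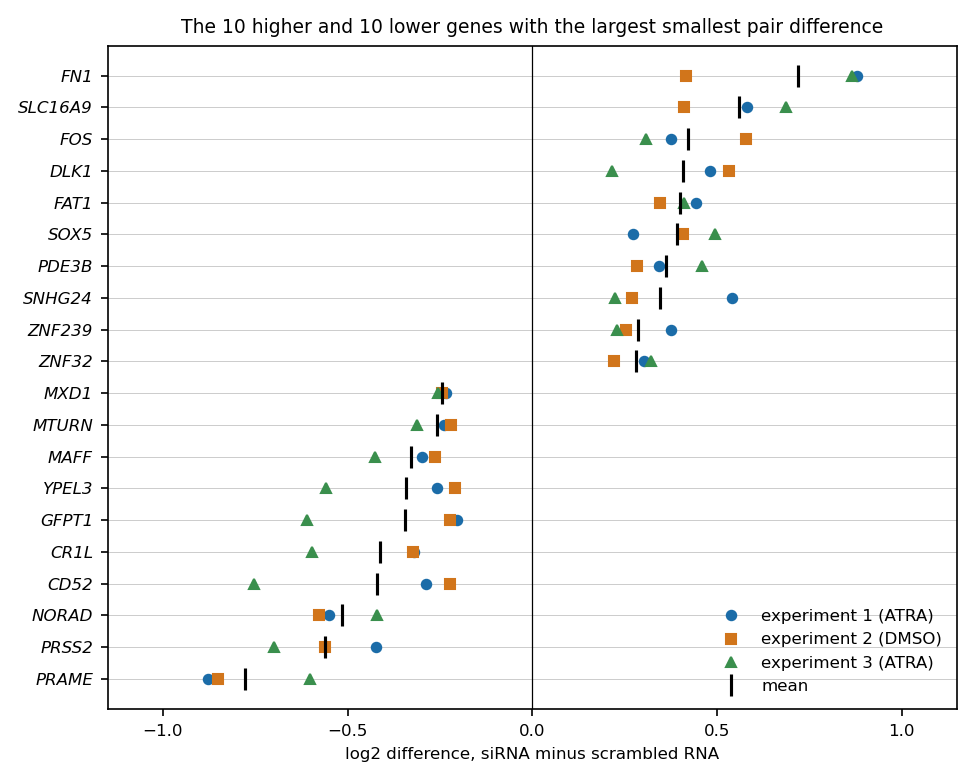
Pair differences (horizontal axis, log2) of the 10 higher and 10 lower bright genes with the largest smallest pair difference, a symbol for each experiment and a bar for the mean. Experiment 3 lies furthest out for every lower gene except PRAME and NORAD, and for SLC16A9, PDE3B, SOX5 and ZNF32 among the higher ones. It lies nearest to 0 for PRAME, NORAD, DLK1, FOS, ZNF239 and SNHG24.

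Probe sets of 1 gene did not always move together. For RAD23B, a DNA repair and proteasome shuttle protein, the pair differences of the probe set used were 0.02, -0.02 and -1.05. Its array levels were 9.82 with the siRNA and 10.87 with the scrambled RNA in experiment 3. The 4 arrays of experiments 1 and 2 had 11.95 to 12.06. The other 3 RAD23B probe sets differed in experiment 3 by -0.13, -0.03 and -0.11.

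Some bright genes stood away from 0 in a single experiment and within 0.1 of it in the others. Besides RAD23B, experiment 3 had ZNF431 at -0.73, with its other 2 probe sets at 0.04 each, and the mucin MUC1 and RCBTB2 at 0.47 each. In experiment 1 the zinc finger genes ZNF564 and ZNF14 were at 0.57 and 0.46, and LINC01126 and the globin pseudogene HBBP1 at -0.36 each. In the DMSO pair of experiment 2 the metallothionein gene MT1G was at 0.47 and neuropeptide Y, NPY, at 0.42, with C7orf13 at -0.42 and SPINK4, a protease inhibitor, at -0.37. These genes were chosen for this pattern, and the values describe it.

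**Figure D4:**
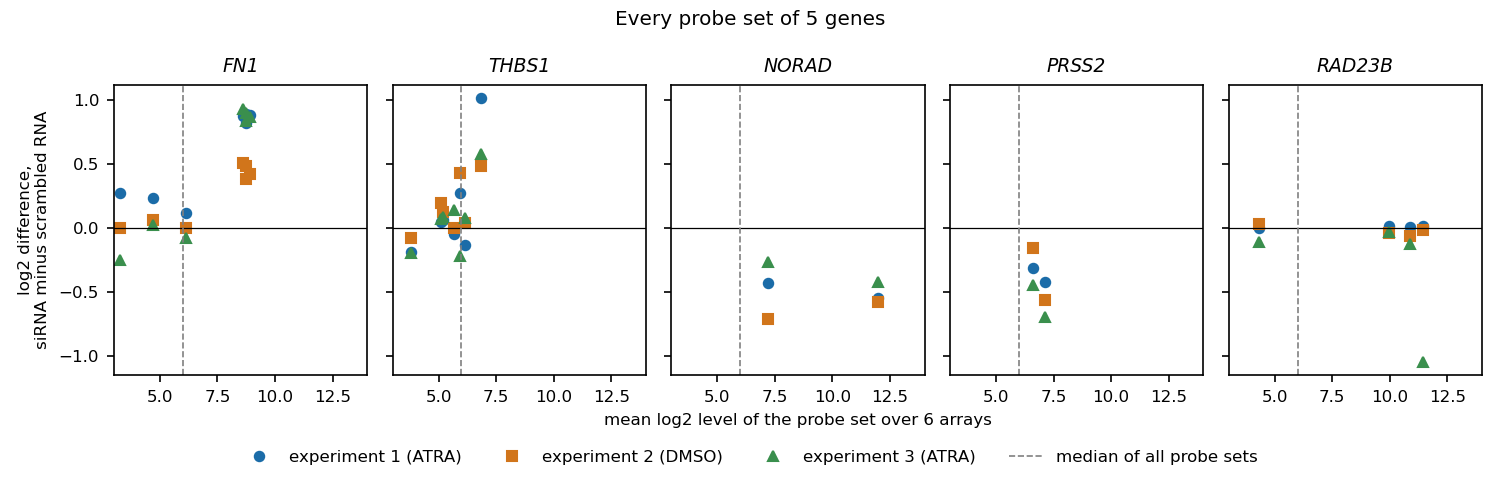
Pair difference (vertical axis, log2) of every probe set of FN1, THBS1, NORAD, PRSS2 and RAD23B against the mean log2 level of the probe set (horizontal axis), a symbol for each experiment, with the median of all probe sets (5.99) dashed. The 4 brightest FN1 probe sets cluster between 0.38 and 0.93, THBS1 has 1 high probe set of 7, and RAD23B has 1 probe set at -1.05 in experiment 3.

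The remaining account goes through 33 lists of 806 genes, 713 of them measured. Of these 713, 73 had an unadjusted p below 0.05, or 10.2%, against 6.41% of all genes (3.40% higher, 3.01% lower). The lists were drawn up with earlier results of these data known, and they include the 5 genes that passed, which are the only members to do so. For every other member named below the limma adjusted p was above 0.05, and the values are given as measured. They are those of the probe set used, and other probe sets are given only for some genes. The median difference over all genes was 0.0056.

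Of 19 Polycomb, CUL2 ligase and corepressor genes, which encode partners of PRAME, 11 were higher and 8 lower (median 0.03). HDAC2, a histone deacetylase, was at 0.09, 0.02 and 0.24, and EZH1, a Polycomb methyltransferase, at -0.15, -0.11 and -0.15. CUL2 itself was at 0.09, 0.08 and 0.13. EZH1, JARID2 and HDAC2 had an unadjusted p below 0.05. The other EZH1 probe sets were at -0.17 to 0.03 in the mean. The other CUL2 probe set was at 0.05, 0.02 and -0.08, and the other HDAC2 probe set at 0.05, -0.04 and 0.02.

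Of 21 genes for retinoid receptors and metabolism, 15 were higher (median 0.03), and of 25 genes induced by retinoic acid, 9 were higher (median -0.05). CYP26A1, which degrades retinoic acid, stood at 0.25 and 0.36 in the ATRA pairs. Both of its DMSO arrays, at 5.75 and 5.72, lay under the dim limit of 5.99, so their difference of 0.03 is between arrays not shown to be above background. The dim ALDH1A1, which makes retinoic acid, stood at 0.53 and 0.36 in the ATRA pairs and 0.14 in the DMSO pair. RDH11, a retinal reductase, was at -0.02, -0.16 and -0.21, and its other bright probe set at 0.02, -0.03 and 0.04. Among the induced genes, the kinase gene PDK4 was at -0.10, -0.31 and -0.43 (with dim DMSO arrays, at 5.31 and 5.62), the adhesion molecule ICAM1 at 0.16, 0.23 and 0.12, and NRIP1, a receptor-bound corepressor, at 0.15, 0.17 and 0.06. Other bright probe sets were at 0.08 and -0.12 in the mean for ICAM1, and at 0.21, -0.18 and 0.42 for NRIP1. The counts past an unadjusted p of 0.05 were 2 higher and 1 lower in the first list and 2 and 2 in the second.

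Genes that handle or respond to foreign RNA were held in 2 lists. Both arms received RNA, so a response common to them cancels in a pair difference. The lists can show only a difference between the siRNA and the scrambled RNA. Of 23 Argonaute, DICER1 and other silencing genes, 15 were higher and 8 lower (median 0.01), the mean differences ran from -0.09 to 0.10, and 0 had an unadjusted p below 0.05. AGO2, which cuts the target of an siRNA, was at 0.18, -0.04 and -0.09. Of 35 double-stranded RNA and interferon genes, 16 were higher and 19 lower (median -0.03), and 18 were dim. IFIT3 was at 0.09, 0.24 and 0.20 and DHX58, a relative of the sensor RIG-I, at -0.17, -0.20 and -0.10, and these 2 had an unadjusted p below 0.05. ISG15, a ubiquitin-like protein, was at -0.07, -0.02 and -0.35.

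The families of the genes that passed held members on both sides of 0. Of 19 PUMILIO and NORAD genes 12 were higher (median 0.03), with PUM2 at 0.12, -0.09 and 0.25, the mitotic kinesin CENPE at 0.02, 0.00 and 0.33, and the dim SAMD9 at 0.29, 0.06 and 0.38. Of 35 matrix and integrin genes 19 were higher and 16 lower (median 0.01). Beside FN1 and THBS1, SPARC, a matrix-binding glycoprotein, stood at 0.20, 0.13 and 0.23, and TLN1, which links integrins to actin, at -0.17, -0.42 and -0.25. The other TLN1 probe sets were at -0.16 and 0.05 in the mean. The fibronectin receptor subunits ITGA5 (0.02) and ITGB1 (0.07) were near 0. Of 9 measured SLC16 genes 5 were higher (median 0.01). At an unadjusted p below 0.05, 2 were higher and 0 lower. Beside SLC16A9 the second was the dim SLC16A14, at 0.03, 0.39 and 0.20, while SLC16A5 was at -0.12, -0.08 and -0.20. Of 16 serine protease genes 8 were higher and 8 lower, and PRSS23, a secreted protease, was at 0.51, 0.55 and -0.05, again with dim arrays in experiment 3. Of 18 cancer-testis genes 13 were higher and 5 lower, with MAGEC2 at 0.14, 0.04 and 0.21 and the dim TEX14 at -0.12, -0.32 and -0.20. Outside these families, of 23 TGF-beta and SMAD targets 7 were higher and 16 lower in the mean difference (median -0.02). By pair 12, 12 and 5 were higher, with medians of 0.03, 0.01 and -0.08, so the list was lowest in experiment 3. BAMBI, a decoy receptor, was at 0.13, 0.11 and 0.14 and SMAD6 at -0.18, -0.04 and -0.23. The other SMAD6 probe sets, all bright, lay at -0.01 to 0.04 in the mean.

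Among lineage genes, 12 of 31 erythroid genes were higher and 19 lower (median -0.03), 2 and 4 of them with an unadjusted p below 0.05. The embryonic globins HBZ (-0.20, -0.12 and -0.29) and HBE1 (-0.19, -0.10 and -0.15) were lower in each pair, as was beta globin HBB (-0.23, -0.12 and -0.10). A second, dim HBE1 probe set was higher in each pair (0.10, 0.11 and 0.10). RHAG, an ammonium transporter of the red cell, was at 0.18, 0.12 and 0.37, and the erythroid factor KLF1 at 0.08, 0.13 and 0.31. All 3 RHAG probe sets were higher in every pair, with means of 0.22, 0.24 and 0.29. Megakaryocytic genes were higher in 12 of 21 (median 0.05), with the dim tubulin gene TUBB1 at 0.24, 0.07 and 0.18. Granulocytic and monocytic genes were higher in 15 and lower in 17 of 32 (median -0.00), with CEBPB at -0.09, -0.10 and -0.18 and lysozyme, LYZ, at 0.22, 0.07 and 0.04. Genes of BCR-ABL and STAT5 output were higher in 13 of 24 (median 0.01), with the STAT5 feedback genes SOCS1 at 0.39, 0.27 and 0.13, SOCS2 at 0.14, 0.08 and 0.17 and CISH at 0.06, 0.10 and 0.17. The other bright SOCS1 probe sets were at -0.04 and 0.08 in the mean.

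Cell cycle lists had medians above 0 in the ATRA pairs and below 0 in the DMSO pair. Genes of G1/S and replication lay above 0 for 27, 10 and 24 of 34 in experiments 1, 2 and 3, and G2 and mitosis genes in 18, 4 and 25 of 30. The medians were 0.04, -0.04 and 0.07 for the first list and 0.02, -0.05 and 0.05 for the second, so the differences were small. Of all 12875 bright genes, 7256, 5604 and 6343 lay above 0 in experiments 1, 2 and 3, also the fewest in experiment 2. Other lists dipped there too, with 15, 7 and 12 of 19 PRAME partners and 18, 10 and 13 of 23 silencing genes above 0. On the probe set used, single members could keep 1 sign in all pairs. The kinase gene CDK6 was at 0.12, 0.12 and 0.14 and the replication factor MCM10 at 0.15, 0.08 and 0.18. Cyclin D1, CCND1, was at -0.09, -0.30 and -0.16, with dim arrays in experiment 3. Their other bright probe sets did not all keep that sign. In the mean these ran from -0.26 to 0.24 for CDK6 and from -0.00 to 0.08 for MCM10. The other CCND1 probe set was at 0.12, -0.00 and -0.33. The difference between ATRA and DMSO pairs was not tested for lists, and the DMSO side is 1 pair. Of 25 p53 targets and cell cycle inhibitors 5 were higher and 20 lower in the mean difference (median -0.03), with 0 at an unadjusted p below 0.05. In the single pairs 12, 12 and 12 of the 25 were higher, with medians of -0.019, -0.0035 and -0.00059. GADD45A was at -0.07, -0.07 and -0.13. The histone genes H2AC6 (0.15, 0.17 and 0.37) and H2BC21 (0.10, 0.15 and 0.27) led a list with 8 of 12 higher (median 0.04).

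Several lists, the TGF-beta and SMAD targets among them, had their lowest median in experiment 3, the experiment with the large 3' to 5' gaps. A link between the gaps and these medians was not tested. Ribosomal protein genes were higher in 13, 8 and 1 of 25 in experiments 1, 2 and 3, with medians of 0.00, -0.01 and -0.08, and RPL11 was at -0.03, -0.04 and -0.23. Oxidative phosphorylation genes had medians of -0.00, -0.00 and -0.10, but 16, 12 and 14 of 34 higher, so that by count experiment 2 was the lowest. NDUFB10, a subunit of complex I, was at -0.01, -0.06 and -0.35, but its other probe set, also bright, was at -0.00, 0.00 and -0.05. Immediate early genes had medians of 0.05, 0.03 and -0.10 over 28, apoptosis regulators 0.03, 0.01 and -0.08 over 27, and cholesterol synthesis genes 0.01, 0.01 and -0.07 over 18. In the last, the synthase gene HMGCS1 was at -0.12, -0.19 and -0.37 and FDPS at -0.02, -0.05 and -0.29. BMF, a death-promoting BCL2 relative, was at -0.12, -0.27 and -0.10. DUSP1, a phosphatase of MAP kinases, was at 0.23, 0.25 and 0.08, and its other bright probe set at -0.04, -0.02 and 0.24.

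Heat shock genes kept 1 sign in the medians of all pairs (0.08, 0.02 and 0.11), with 11 of 14 higher. The chaperone genes DNAJA1 (0.06, 0.05 and 0.31) and DNAJB1 (0.25, 0.05 and 0.12) had the smallest p. Their other probe sets were at 0.19, -0.02 and 0.23 for DNAJA1 and 0.14, 0.12 and -0.10 for DNAJB1. In the list of amino acid and unfolded protein stress, 19 of 28 genes were lower, with medians of -0.03, -0.03 and -0.05. In that list INHBE, an inhibin subunit, was at -0.22, -0.23 and -0.17, and the chaperone gene DNAJB9 at 0.13, 0.21 and 0.15. The other DNAJB9 probe sets were at 0.47, 0.01 and 0.40 and at 0.61, -0.13 and 0.07. Glycolysis and hypoxia genes were higher in 13 and lower in 16 of 29 (median -0.01), with the mitophagy receptor BNIP3L at -0.10, -0.19 and -0.48 and the aldolase gene ALDOC at -0.25, -0.10 and -0.16. Glycogen and hexosamine genes divided 10 to 9 (median 0.01), with PPP1R3C at 0.43, 0.09 and 0.25 and PPP1R3B at 0.38, 0.26 and 0.05. Lysosome and autophagy genes were higher in 15 of 22 (median 0.01), with GABARAPL1 at -0.18, -0.21 and -0.04 and LAMP1 at 0.20, 0.04 and 0.09.

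Markers of cells foreign to a K562 culture were mostly dim or near the median, with median levels of 5.68 (T and NK lymphocyte genes), 5.91 (B lymphocyte genes), 5.95 (stromal genes) and 6.48 (epithelial genes). Their median differences were 0.01, 0.01, 0.01 and -0.00, with all 4 medians below 0 in experiment 1 (-0.06 to -0.02) and above 0 in experiment 2 (0.05 to 0.06). The median of all dim genes was itself 0.03 in experiment 2 and -0.01 in experiment 1. Of 45 members measured in these lists, GNLY (0.23) and EPCAM (0.12) were higher and COL3A1 (-0.19) lower at an unadjusted p below 0.05. Of all genes, 3.40% were higher and 3.01% lower at that limit. EPCAM, an epithelial adhesion molecule, was bright on these arrays, with a mean of 11.54.

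**Figure D5:**
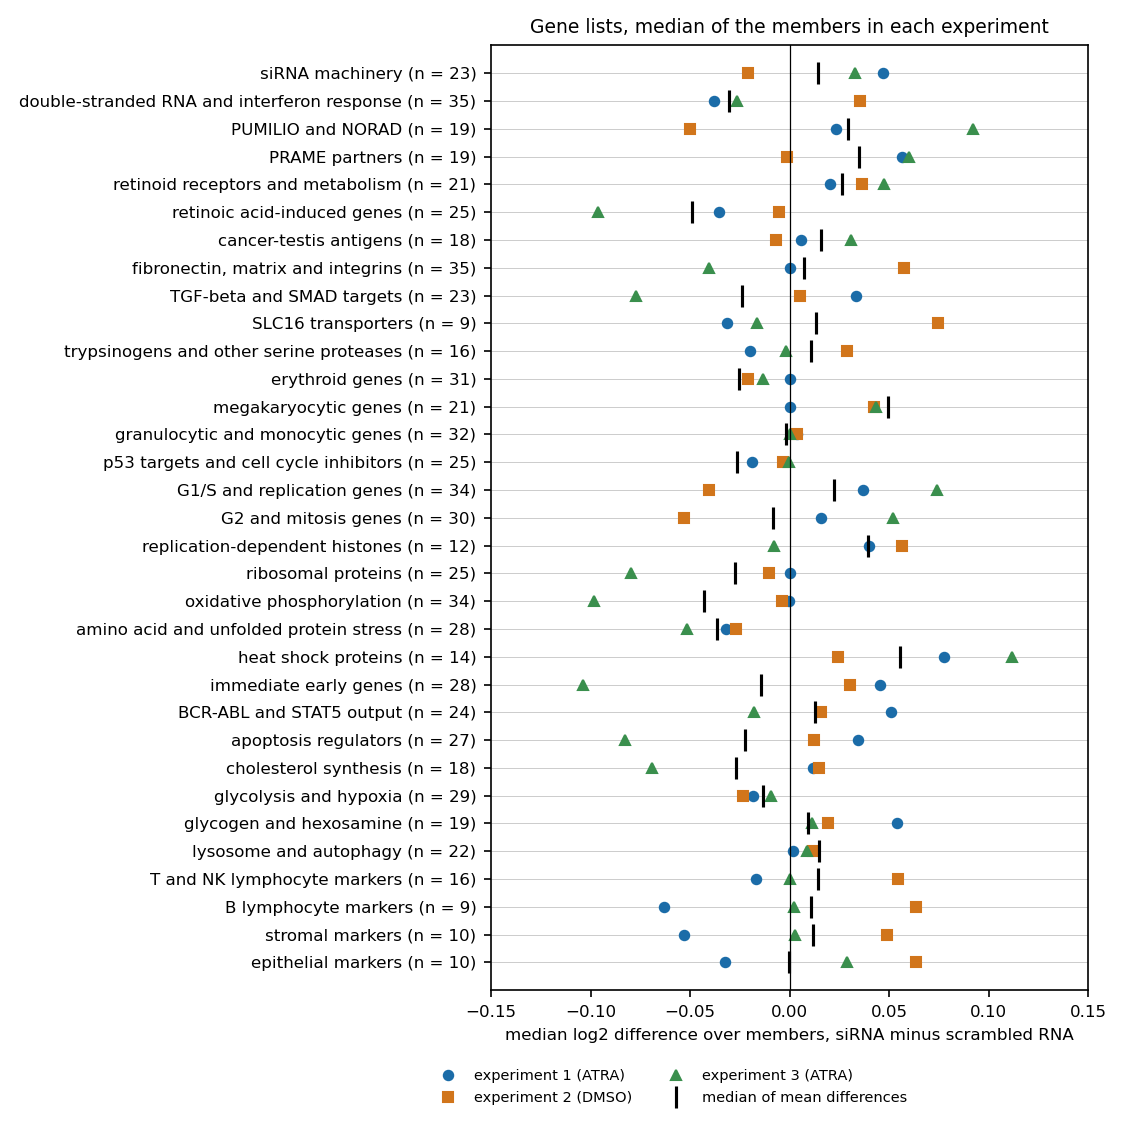
Median pair difference (horizontal axis, log2) of the measured members of each of 33 gene lists, a symbol for each experiment and a bar for the median of the mean differences. The list medians are small in every experiment, and experiment 3 lies apart from the others for oxidative phosphorylation, ribosomal protein, immediate early and apoptosis genes.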

How the data were processed

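Signals of 6 Affymetrix HG-U133 Plus 2.0 arrays were used as deposited, in log2 units after RMA, run by the authors in BRB-ArrayTools according to the design text. The version is not given in the sources used. With 6 arrays, their number limits precision. The platform annotation paired 41091 of 54675 probe sets with 1 gene and 1801 with several, 62 were controls and 11721 were not listed. Of 19775 genes, 19735 were found by identifier in a RefSeq table.

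Pair differences were tested with limma 3.58.1 in R 4.3.3 (lmFit with the experiment as a block, eBayes with an intensity trend, 2 residual and 8.50 prior degrees of freedom), with Benjamini-Hochberg adjustment over all genes at 0.05. SEs are moderated, so that for FN1 the SD of the pair differences was 0.26 and the SE of their mean 0.08. The experiments are described as independent, but not how their cultures were kept apart, so p-values measure only the spread between these samples, which may be technical. Experiment numbers pair the samples. Same-numbered arrays deviated together from their group means (r of 0.679, 0.795 and 0.883), while differently numbered arrays had r of -0.796 to 0.534. Deviations from a group mean sum to 0, so part of this contrast is built in. Treatment also differs between experiments. On simulated data for 19775 genes with 200 changed, this fit recovered 94% at a log2 difference of 0.5 and 100% at 1, 2 and 4, with 14 false calls. The simulated noise came from the variance model of the fit itself. With 200 changed genes the adjusted threshold is also easier to pass than with the 5 calls here. The recovery therefore does not carry over to these data, where THBS1 missed the test at 0.69.

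Named genes were PRAME, NORAD, FN1, SLC16A9, those past the threshold, the 10 higher and 10 lower genes with the largest smallest pair difference among genes with all arrays at or above 5.99, up to 3 list members with the same sign in all pairs and the smallest p (a selection is printed), and 2 genes a side standing out in a single experiment. PUM2, AGO2, ITGA5, ITGB1, JARID2, SPARC, KLF1, HBB, PRSS23 and the dim PLPP3, ZNF883 and LHFPL3 were added after their values were seen. The members and lists were chosen with earlier results of these data known. Alternatives were the block, probe set choice, dim genes, variance trend, normalization and each experiment left out.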

Additional observations from a re-analysis of the deposited data

Results flagged for a closer look

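MUC1, an epithelial mucin, differed by 0.06 and 0.47 in the ATRA pairs and by -0.05 in the DMSO pair, opposite signs under the same contrast. The siRNA effect under ATRA minus that under DMSO was 0.31 (95% interval -0.11 to 0.73, limma adjusted p = 0.998, 2 pairs against 1). Over all 19775 genes this difference passed limma for 0, and 655 had an unadjusted p below 0.05. MUC1 had been picked for its difference in experiment 3.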

How the results depend on the processing

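PRAME kept its direction under all 11 alternatives and lost the test without the replicate block (-0.78, adjusted p = 1) and without experiment 2. Left out in turn, experiments gave PRAME differences of -0.73 to -0.86. Genes past the threshold, 2 higher and 3 lower, became 0 and 0 without the replicate block, 0 and 1 with the mean of a gene's probe sets, with every probe set tested and with no intensity trend, where PRAME remained, and 6 and 7 with arrays centred on their medians. Those 13 added THBS1, FAT1, FOS, DLK1, CR1L, MAFF, CD52 and GDF15. With an experiment left out they ranged from 0 to 1 and from 0 to 2. Genes at an unadjusted p below 0.05 (672 and 596) became 159 and 96 without the block, 1546 and 1332 over every probe set and 446 higher over bright genes, and ranged from 491 to 673 higher and from 363 to 618 lower with an experiment left out. Groups without overlap (396 and 305) became 1133 and 900 over every probe set, 182 and 178 over bright genes, 503 lower after quantile normalization, 191 lower after centring, and 1614 to 2370 and 1174 to 2184 with 2 pairs. Genes at 0.3 in each pair (8 and 4) became 17 and 11 over every probe set, 5 higher over bright genes, 24 to 30 and 13 to 17 with 2 pairs, 29 and 15 at 0.2 and 3 higher at 0.4. Signs turned for KLF4 (-0.043) and LCK (-0.0069) with the mean of their probe sets. They also turned for LINC01126 (-0.16 to 0.037), C7orf13 (-0.22 to 0.010), NPY (-0.0072 to 0.23) and RAD23B (-0.53 to 0.00071) over the experiments left out, each without the experiment that set it apart. Fewer pairs or more features tested explain part of the moved counts by construction. The cause of the others was not tested.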

Other observations

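Of the 701 genes whose groups did not overlap, 18 differed by 0.3 or more in the mean. The median size over the 701 was 0.13. Some are genes outside the groups above, named after their values were seen. MATR3, a nuclear matrix protein that binds RNA, was bright and differed by -0.07, -0.23 and -1.10. LAMA1, a laminin chain, stood at 0.49, 0.22 and 0.33 and SLC18A2, a vesicular monoamine transporter, at -0.08, -0.35 and -0.50. LAMA1 was dim, and SLC18A2 lay just above the median of all probe sets. The limma adjusted p of these 3 ran from 0.535 to 0.771. GDF15, a stress-induced cytokine whose groups overlapped, was at -0.42, -0.13 and -0.71 (adjusted p = 0.483).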
